A study of Mus musculus with 56 samples.

Results

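Asphd1, Tmem219, Tlcd3b (listed as Fam57b in older annotation) and Gdpd3 are 4 protein-coding genes of the Sult1a1-Spn region, the mouse interval homologous to human 16p11.2. They were taken by annotated gene symbol as the membrane and lipid genes of the interval. Each symbol was listed alone by 1 probe set of the array, so that 4 probe sets were described, out of 26 interval genes and 22180 genes in all with a probe set of their own.

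Gene expression was measured on 56 Affymetrix Mouse Gene 2.1 ST arrays, which carry sets of short probes along each gene. All animals were adult male mice of the C57BL/6N strain. Del/+ mice carried 1 copy of the Sult1a1-Spn region, wt mice 2 copies and Dup/+ mice 3 copies. Both rearrangements are heterozygous and germline. They were produced in vivo by recombination between loxP sites in females with an Hprt-driven Cre, so every gene of the interval shares the change in copy number. Hippocampus and striatum were each profiled in 4 Del/+, 8 wt and 4 Dup/+ mice, and cerebellum and liver each in 3 Del/+, 6 wt and 3 Dup/+ mice. The deposited values are log2 signals, and an array is referred to by its genotype with the number of the mouse. Nothing in the labels states whether RNA of one mouse was used for several tissues, and the labels call number 17 Del/+ in the cerebellum but wt in hippocampus and liver.

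The 4 genes share their interval and a link to membranes. Tlcd3b carries a TLC domain, the domain of the ceramide synthases, and has been tied to ceramide metabolism. Ceramide is the backbone of the sphingolipids, which are abundant in brain membranes and myelin. Gdpd3 belongs to the glycerophosphodiester phosphodiesterases and acts as a lysophospholipase D, which releases lysophosphatidic acid and N-acylethanolamines from lysophospholipids. Tmem219 is a single-pass membrane protein that was described in human cells as a receptor of the binding protein Igfbp3, with caspase-8 downstream, and as a partner of Il13ra2 in binding chitinase-like proteins. Asphd1 is a predicted membrane protein with an aspartate beta-hydroxylase domain, and little is known of what it does.

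In GRCm38 the 4 genes lie on chromosome 7 within a stretch of 36 annotated genes from Sult1a1 to Spn. Gdpd3 is the eighth of them (126766414 to 126775645) and Tlcd3b the thirteenth (126814041 to 126830219). Tmem219 (126886219 to 126928821) overlaps the end of the kinase gene Taok2 by 78 bases, and Asphd1 (126945987 to 126949582) overlaps Kctd13 by 1911 bases. The probe sets list Asphd1 and Tmem219 alone, but the positions of the single probes were not at hand, so how far a probe lies in the shared bases was not tested.

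The start regions of these genes differ in their CpG content. RefSeq (GRCm38.p6) windows of 250 bases before to 50 bases after an annotated start were at hand for Tmem219, Tlcd3b and Gdpd3, with 3 starts for Tlcd3b. Tmem219, the gene with signal far above background in all 4 tissues, is shown with the start of Tlcd3b in which a searched motif was found. Capitals mark the GC box GGGCGG, the CCAAT box, the TATA box written as TATAAA and the full cyclic AMP response element TGACGTCA, searched on both strands, and none of those marked overlap.
Tmem219 promoter window, chr7:126898229-126898528, minus strand: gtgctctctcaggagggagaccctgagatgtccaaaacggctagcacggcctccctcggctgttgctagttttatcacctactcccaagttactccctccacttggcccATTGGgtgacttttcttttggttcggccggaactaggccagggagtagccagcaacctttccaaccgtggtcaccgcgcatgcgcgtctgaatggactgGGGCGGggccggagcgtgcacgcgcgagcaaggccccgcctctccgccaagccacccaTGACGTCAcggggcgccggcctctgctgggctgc
Tlcd3b promoter window at its middle start, chr7:126823053-126823352, plus strand: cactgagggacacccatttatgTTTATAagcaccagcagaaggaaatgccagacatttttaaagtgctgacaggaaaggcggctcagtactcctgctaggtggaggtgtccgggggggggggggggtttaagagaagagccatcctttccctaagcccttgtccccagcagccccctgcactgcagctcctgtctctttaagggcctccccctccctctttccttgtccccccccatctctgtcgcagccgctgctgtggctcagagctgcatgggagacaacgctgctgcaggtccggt

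The Tmem219 window held 22 CpG dinucleotides, against a median of 7 over 32851 promoter windows of this length. The 3 Tlcd3b windows held 6, 6 and 1, and the Gdpd3 window held 7 (chr7:126766164-126766463). The Tmem219 window held 1 GGGCGG, a motif present in 35.7% of all windows, 1 CCAAT, present in 37.4%, and 1 TGACGTCA, present in 1.79%. The middle Tlcd3b window held 1 TATAAA on the minus strand, far upstream of the start, and 13.62% of all windows held this motif. The other 2 Tlcd3b windows and the Gdpd3 window held none of the 4 motifs. Such matches describe the letters of a window and were not measured as sites of binding.

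Marker signal of another tissue stood out on some of the 56 arrays, among them 3 from Dup/+ mice. The slopes of the 4 genes in hippocampus and striatum are also given without these 3. Apart from single values marked as such, other results that rest on them, as the Dup/+ ratios and the counts of arrays apart from wt, include them. In the hippocampus, the array of Dup/+ 47 had a mean log2 signal of 10.2 over 5 striatum marker probe sets, against 6.86 to 7.29 on the other 15 arrays, and all 5 were higher there than on any other hippocampus array. Its mean over 8 hippocampus markers was 8.29. The mean of these markers was 8.90 to 8.99 in the 4 Del/+ mice, above all 8 wt mice at 8.63 to 8.85. It was 8.72 to 9.04 in the other 3 Dup/+ mice. None of the 8 markers passed 5% in the slope fit, which does not test Del/+ against wt. In the striatum, the arrays of Dup/+ 21 and Dup/+ 47 had striatum marker means of 9.68 and 10.2, against 10.95 to 11.4 on the other 14 arrays, and means over 4 thalamus markers of 8.60 and 8.002, against 6.04 to 6.96. Their means over 5 astrocyte markers were 9.001 and 9.16, against 8.48 to 8.77. The hippocampus array of wt 17 had a thalamus marker mean of 8.56. That of Dup/+ 47 was 8.30, and the other 14 hippocampus arrays ran from 6.37 to 7.95. The array of wt 17 was left out only where each array was left out in turn. The cerebellum array of Del/+ 17 had a liver marker mean of 6.83, against 4.45 to 5.29 on the others. Its mean over 4 choroid plexus markers was also the highest there, at 8.45 against 5.23 to 7.97, and Ttr is in both lists. The striatum array of wt 16 had a liver marker mean of 6.35, against 4.79 to 5.80, with 5 of 8 probe sets above all other striatum arrays. In each of the 4 tissues the labelled tissue's own markers were otherwise high on every array. Median signals per array ranged from 4.81 to 4.89 in brain and from 3.58 to 3.65 in liver, 0 pairs of arrays were identical and precision is limited by how many arrays there are. Fewer cells that express a gene and less RNA per cell cannot be told apart in these tissue samples.

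The first question was how far the signal of each gene followed the number of copies. The change per copy was taken from a straight line of log2 signal over copies (coded -1, 0 and 1), fitted with limma in each tissue alone. Its slope is given per copy, and a gene was said to rise at an adjusted p under 0.05 after Benjamini-Hochberg adjustment over all kept probe sets of the tissue. All 4 genes rose with copy number in the hippocampus, where 0.155% of 19389 kept probe sets did so. Asphd1, Tmem219 and Tlcd3b rose in striatum and cerebellum, where the share of all kept probe sets was 0.134% and 0.119%. In the liver only Tmem219 of the 4 rose, against 0.079% of 18982 kept probe sets. Such rises were common in the interval. Of its 28 probe sets, these 4 included, 19, 18, 17 and 9 rose in hippocampus, striatum, cerebellum and liver.

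**Figure D1:**
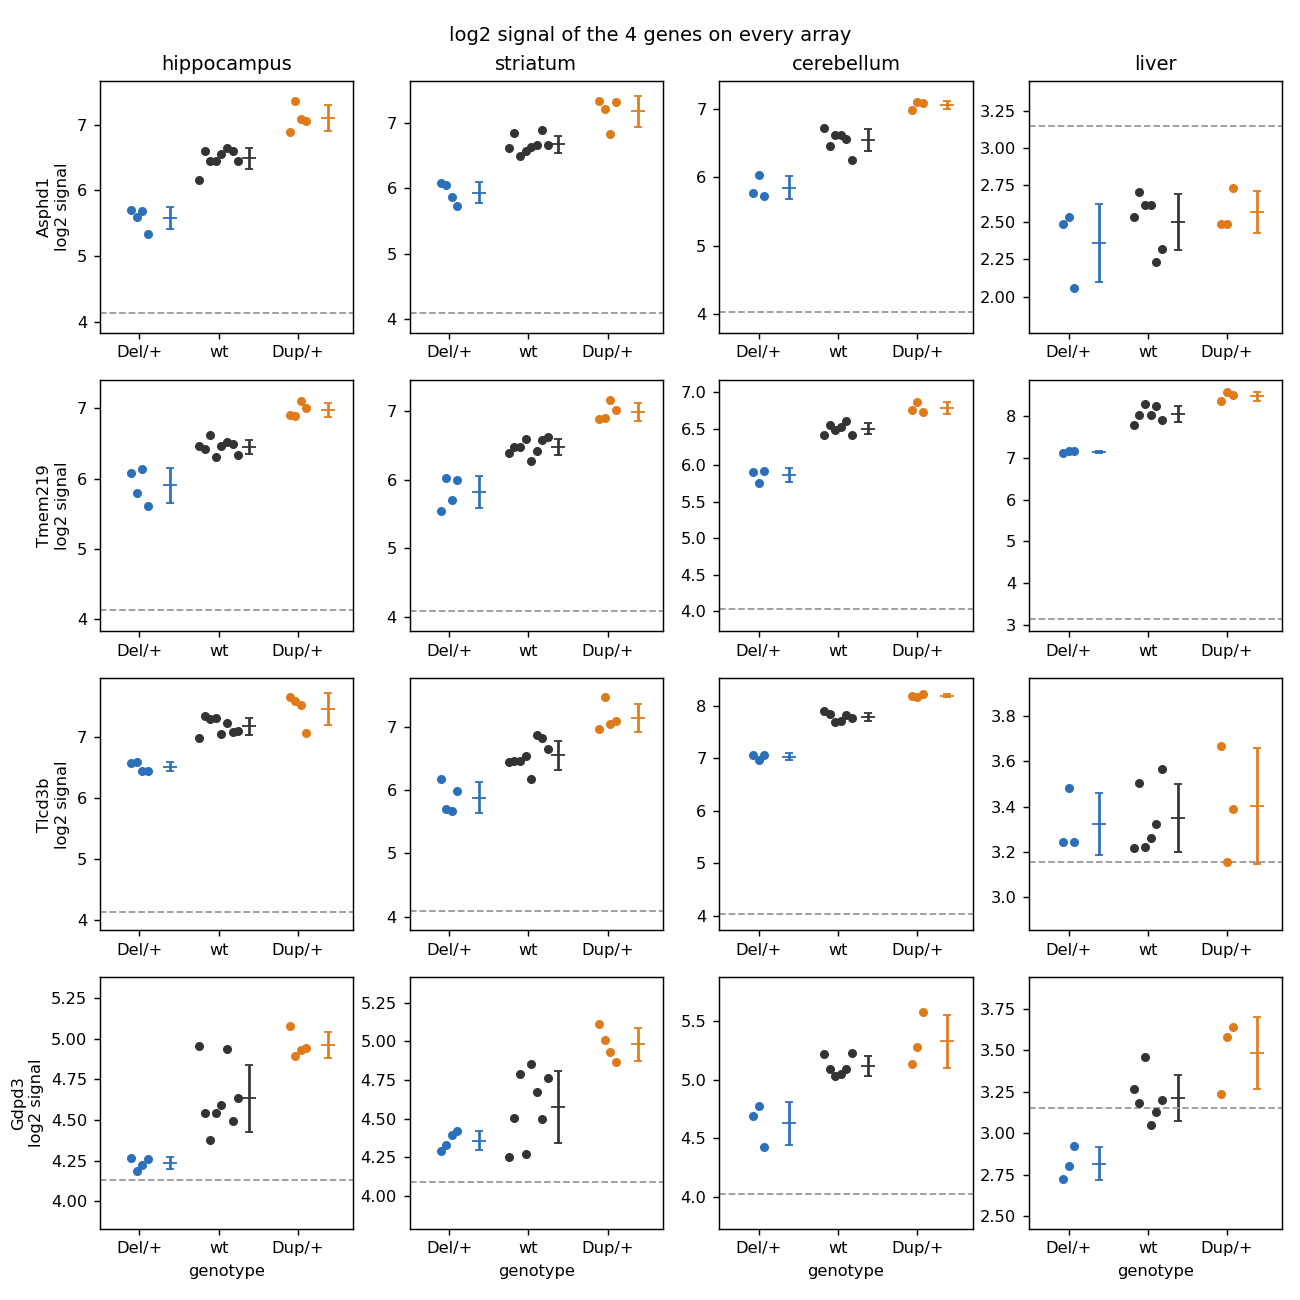
Each panel plots log2 signal (vertical axis, own scale per panel) of 1 gene in 1 tissue against genotype, with a point for each array, a bar for the mean and whiskers for 1 SD (n = 4, 8 and 4 in hippocampus and striatum, 3, 6 and 3 in cerebellum and liver), and a dashed line at the background level of the tissue. In the 3 brain regions every Del/+ array lies below every Dup/+ array for each gene, and the Asphd1 points of the liver all lie under the dashed line. How many of all kept probe sets separate Del/+ from Dup/+ in this way was not counted.

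Among the 28 interval probe sets, the slope of Asphd1 ranked 9, 11 and 21 by size in striatum, cerebellum and liver. In the hippocampus Asphd1 showed the steepest change per copy of all 28. Its log2 signal there was 5.70, 5.60, 5.69 and 5.33 in Del/+ mice and 6.88, 7.36, 7.09 and 7.05 in Dup/+ mice, and ran from 6.15 over a median of 6.50 to 6.64 in wt mice. Each Del/+ array lay below and each Dup/+ array above all 8 wt arrays. The slope was 0.76 per copy (standard error 0.065, adjusted p = 3.36e-06 in limma), and no other assignment of the arrays to the genotypes gave a larger one in size apart from its mirror image (two-sided exact permutation p = 2.22e-06, the smallest the design allows).

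In the striatum Asphd1 was at 6.09, 6.05, 5.87 and 5.74 in Del/+ mice, at 6.49 to 6.89 (median 6.65) in wt mice and at 7.35, 7.22, 6.83 and 7.32 in Dup/+ mice. The Del/+ arrays lay clear of wt, while the array of Dup/+ 47, one of those with thalamus marker signal, fell among the wt values. The slope of 0.62 (standard error 0.066, adjusted p = 4.99e-05) became 0.71 without Dup/+ 21 and 47 (adjusted p = 6.23e-05).

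In the cerebellum Asphd1 was at 5.77, 6.04 and 5.73 in Del/+ mice, at 6.26 to 6.72 (median 6.59) in wt mice and at 6.98, 7.10 and 7.08 in Dup/+ mice, with no overlap between genotypes. Its slope was 0.61 (standard error 0.064, adjusted p = 8.41e-04).

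Tmem219, the Igfbp3 receptor, rose with copy number in all 4 tissues, and the 3 genotypes did not overlap in any of them. In the hippocampus its log2 signal was 6.08, 5.79, 6.14 and 5.61 in Del/+ mice, 6.30 to 6.62 (median 6.46) in wt mice and 6.90, 6.89, 7.10 and 7.003 in Dup/+ mice. The slope was 0.54 (standard error 0.054, adjusted p = 2.29e-05). The Del/+ values spread more widely there (SD 0.25) than those of wt and Dup/+ mice (SD 0.10 each).

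In the striatum Tmem219 was at 5.55, 6.03, 5.71 and 6.00 in Del/+ mice, at 6.28 to 6.62 (median 6.48) in wt mice and at 6.88, 6.91, 7.16 and 7.02 in Dup/+ mice, which gave 0.59 per copy (standard error 0.059, adjusted p = 3.51e-05). In the cerebellum it was at 5.91, 5.75 and 5.93 in Del/+ mice, at 6.41 to 6.61 (median 6.51) in wt mice and at 6.75, 6.87 and 6.72 in Dup/+ mice, which gave 0.46 per copy (standard error 0.058, adjusted p = 0.00311). The array of Del/+ 17, with its liver and choroid plexus marker signal, lay between the other 2 Del/+ arrays of the cerebellum. The slope without it is within the range of 0.41 to 0.49 found on leaving out each array in turn.

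The liver values of Tmem219 were 7.12, 7.16 and 7.15 in Del/+ mice, 7.79 to 8.29 (median 8.02) in wt mice and 8.35, 8.56 and 8.49 in Dup/+ mice. The 3 Del/+ livers lay close together (SD 0.022) and below the lowest wt array. The slope was 0.66 (standard error 0.092, adjusted p = 0.00898). By size it ranked 3 of the 28 interval probe sets, and the Tmem219 slopes of hippocampus, striatum and cerebellum ranked 16, 12 and 19. The liver slope lost its call when Del/+ 11, Del/+ 26, Dup/+ 18 or Dup/+ 19 was left out (adjusted p between 0.0523 and 0.0718), at slopes of 0.63 to 0.72.

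Tlcd3b, the TLC domain gene, rose in the 3 brain regions and not in the liver. Its cerebellum values were the tightest of the 4 genes. They were 7.07, 6.96 and 7.07 in Del/+ mice, 7.70 to 7.90 (median 7.80) in wt mice and 8.20, 8.17 and 8.23 in Dup/+ mice. The 3 genotypes were apart by more than the spread within any of them, and the slope was 0.58 per copy (standard error 0.054, adjusted p = 3.84e-04).

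In the hippocampus Tlcd3b was at 6.58, 6.58, 6.44 and 6.44 in Del/+ mice, at 6.97 to 7.33 (median 7.16) in wt mice and at 7.65, 7.58, 7.52 and 7.06 in Dup/+ mice. The last of these is the array of Dup/+ 47 with the striatum marker signal, and it lay within the wt range. The slope was 0.47 (standard error 0.067, adjusted p = 0.00198) with that array and 0.55 (adjusted p = 3.19e-05) without it. Asphd1, Tmem219 and Gdpd3 had slopes of 0.78, 0.53 and 0.37 without this array and kept their calls.

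In the striatum Tlcd3b was at 6.17, 5.70, 5.66 and 5.98 in Del/+ mice, at 6.17 to 6.87 (median 6.49) in wt mice and at 6.96, 7.46, 7.04 and 7.08 in Dup/+ mice. The highest value was that of Dup/+ 21, the array with the highest thalamus marker mean. The slope was 0.63 (standard error 0.079, adjusted p = 3.67e-04) and 0.59 (adjusted p = 0.00954) without Dup/+ 21 and 47. Without them, Tmem219 and Gdpd3 had striatum slopes of 0.58 and 0.30 on the same sides of the threshold. Choroid plexus markers also ran higher in the Dup/+ striatum, with means over 4 probe sets of 8.50 to 9.06, against 5.75 to 8.94 in Del/+ and 6.53 to 8.59 in wt mice, and their part in these values was not tested.

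**Figure D2:**
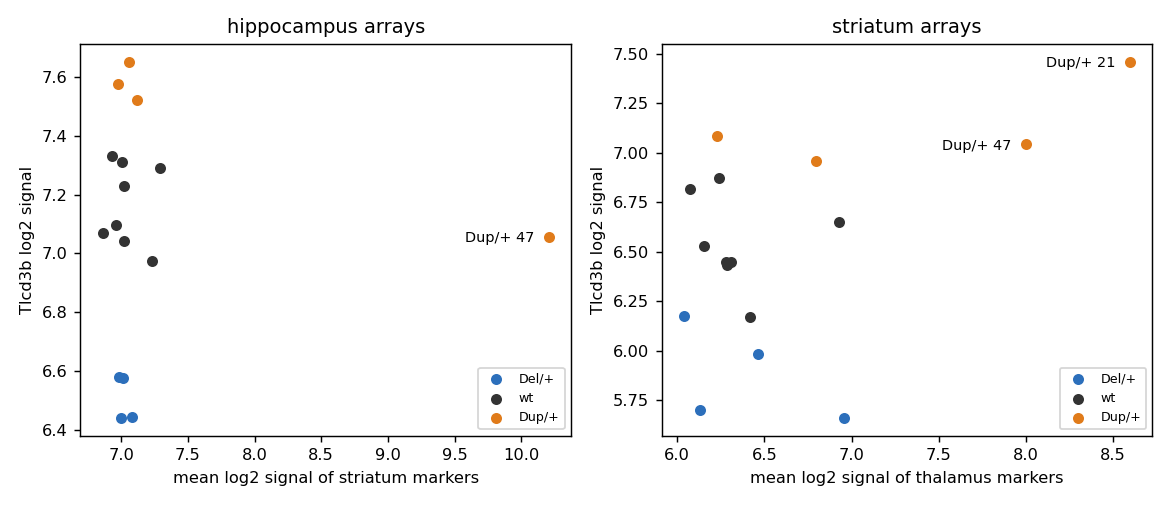
Tlcd3b log2 signal (vertical axes) is plotted against the mean log2 signal of 5 striatum marker probe sets on hippocampus arrays (left) and of 4 thalamus marker probe sets on striatum arrays (right), 1 point per array, coloured by genotype. Dup/+ 47 stands alone at 10.2 in the hippocampus with Tlcd3b at 7.06, and Dup/+ 21 and 47 stand at 8.60 and 8.002 in the striatum with Tlcd3b at 7.46 and 7.04.

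Gdpd3, the lysophospholipase D gene, had the smallest slopes of the 4 genes in each brain region. In the hippocampus it was at 4.27, 4.19, 4.22 and 4.26 in Del/+ mice, at 4.38 to 4.95 (median 4.57) in wt mice and at 5.08, 4.895, 4.93 and 4.94 in Dup/+ mice. The Del/+ arrays lay below all wt arrays, and wt 6 and wt 44 reached the Dup/+ values. The slope was 0.36 (standard error 0.056, adjusted p = 0.00464).

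In the striatum Gdpd3 was at 4.29, 4.33, 4.39 and 4.42 in Del/+ mice, at 4.25 to 4.86 (median 4.59) in wt mice and at 5.11, 5.01, 4.93 and 4.87 in Dup/+ mice, so that the Dup/+ arrays were clear of wt and the Del/+ arrays were not. The slope of 0.31 (standard error 0.067) missed the threshold (adjusted p = 0.132). Taken as a single gene, it was reached or exceeded by few assignments of the arrays (two-sided exact permutation p = 0.000286, unadjusted).

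In the cerebellum Gdpd3 was at 4.69, 4.78 and 4.42 in Del/+ mice, at 5.03 to 5.23 (median 5.10) in wt mice and at 5.13, 5.28 and 5.58 in Dup/+ mice, which gave 0.35 per copy (standard error 0.069, adjusted p = 0.121, unadjusted exact permutation p = 0.000433). In the liver it was at 2.73, 2.80 and 2.93 in Del/+ mice, at 3.05 to 3.46 (median 3.19) in wt mice and at 3.24, 3.58 and 3.64 in Dup/+ mice, which gave 0.33 per copy (standard error 0.081, adjusted p = 0.290, unadjusted exact permutation p = 0.000541). In both tissues the Del/+ arrays lay below all wt arrays while the Dup/+ arrays overlapped them. The liver values straddled the background level of 3.15 described below. Only the liver array of Dup/+ 21, at 3.64, reached the filter level of 3.61, so the liver test of Gdpd3 rests on 1 Dup/+ array passing the filter.

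**Figure D3:**
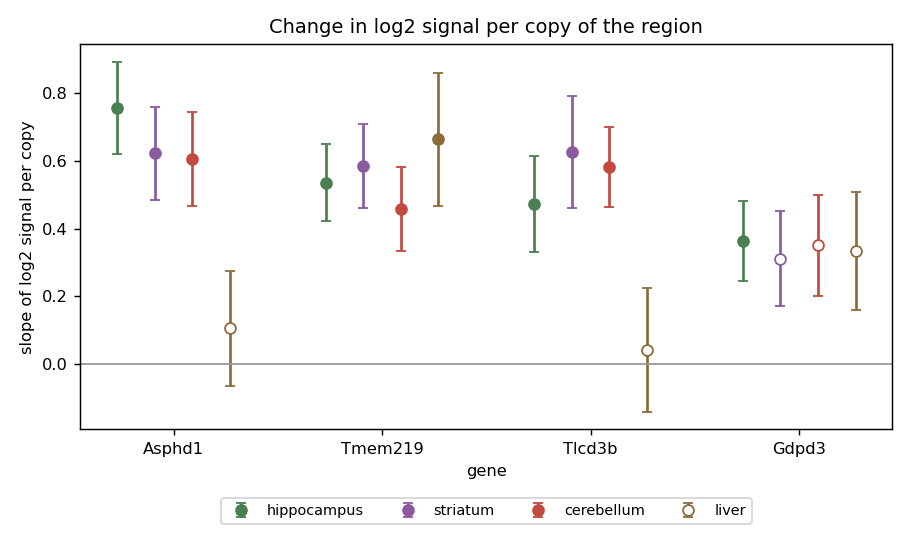
The slope of log2 signal per copy (vertical axis) is plotted for each gene and tissue with its 95% confidence interval from limma, filled where the adjusted p was under 0.05 over all kept probe sets. Asphd1 and Tlcd3b stand near 0 in the liver (0.11 and 0.041), Tmem219 stands at 0.66 there, and the Gdpd3 slopes lie between 0.31 and 0.36 in all 4 tissues.

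Asphd1 and Tlcd3b, without a call in the liver, were there below or just above the level of genes not used by the tissue. The background was set at the 95th percentile of the wt means of 1405 olfactory and vomeronasal receptor probe sets, which was 4.03 to 4.13 in brain and 3.15 in liver. Asphd1 had a wt mean of 2.50 ± 0.19 (SD, n = 6) in the liver, and none of the 6 wt arrays reached the background level. Its values there were 2.49, 2.53 and 2.06 in Del/+ mice, 2.23 to 2.71 in wt mice and 2.49, 2.49 and 2.73 in Dup/+ mice, and the genotypes overlapped. It did not pass the filter on low signals in the liver, and its unadjusted slope was 0.11 (95% confidence interval -0.064 to 0.28). Tlcd3b had a liver wt mean of 3.35 ± 0.15 (SD, n = 6), just above background, with a slope of 0.041 (95% confidence interval -0.14 to 0.22, adjusted p = 0.957). Its values of 3.24, 3.48 and 3.24 in Del/+ mice, 3.22 to 3.57 in wt mice and 3.67, 3.15 and 3.39 in Dup/+ mice overlapped throughout. Only the array of Dup/+ 18, at 3.67, reached the filter level of 3.61, so Tlcd3b was kept in the liver through 1 Dup/+ array. A slope as large as those of Tlcd3b in the brain lies outside its interval. Its wt mean was under the 99th percentile of the receptor probe sets (4.19), however. So close to background, the interval describes the array signal and cannot decide whether the RNA followed copy number. For Asphd1, with its signal below background, a difference was not detectable in the liver.

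Gdpd3 had a wt mean of 3.21 ± 0.14 (SD, n = 6) in the liver, with 4 of 6 wt arrays above background. In the brain its wt mean was above the 95th percentile of the receptor probe sets in each region and under the 99th (5.43 to 5.50). Asphd1, Tmem219 and Tlcd3b were above the 99th percentile in all 3 regions, and Tmem219 was so in the liver too, with a wt mean of 8.04 ± 0.19 (SD, n = 6). Brain and liver arrays were normalized separately, so no level was compared between them.

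The loss of a copy was tested apart from the gain of a copy. In the hippocampus of Del/+ mice Asphd1 fell by 0.90 against wt (standard error 0.11, limma adjusted p = 4.91e-04), Tlcd3b by 0.66 (adjusted p = 0.0142) and Tmem219 by 0.55 (adjusted p = 0.0325), which makes 3 of 4 genes against 0.103% of all kept probe sets. Of these, Tmem219 lost its call without any 1 of 8 arrays (Del/+ 11, Del/+ 26, wt 6, wt 16, wt 17, wt 35, wt 44 or wt 49), and Tlcd3b lost it without Del/+ 23 or Del/+ 26. With blocks of 24 array numbers in the fit, Asphd1 alone passed (Tmem219 adjusted p = 0.10, Tlcd3b 0.0622), and Tmem219 did not pass in a fit of Del/+ and wt arrays only (0.0992). The Del/+ arrays also had the higher hippocampus marker means given above, and their part in these differences was not tested. In the striatum Asphd1 fell by 0.74 (adjusted p = 0.00709) and Tmem219 by 0.66 (adjusted p = 0.0109), against 0.098% of kept probe sets, and 1 of these calls was lost without Del/+ 7, Del/+ 23 (both Tmem219) or Del/+ 28 (Asphd1). Tlcd3b, at -0.67, missed the threshold there (adjusted p = 0.167).

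In the cerebellum Tlcd3b fell by 0.76 (adjusted p = 0.00303) and Tmem219 by 0.64 (adjusted p = 0.0100), against 0.0877% of kept probe sets, and Tmem219 lost its call without Del/+ 17 (adjusted p = 0.0631) or Del/+ 26 (adjusted p = 0.0810). Asphd1, at -0.69, just missed the threshold there (adjusted p = 0.0528) and passed it without wt 49 (adjusted p = 0.0215) and under 3 other settings of the fit (adjusted p from 0.0310 to 0.0395). None of the 4 genes passed in the liver, where no probe set of the table did (0% of kept probe sets) and where 2 of the 4, Tmem219 and Gdpd3, had an unadjusted p under 0.05, beside 2.06% of kept probe sets lower at that level. The Tmem219 difference in the liver was -0.90 (95% confidence interval -1.22 to -0.59, adjusted p = 0.188).

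None of the 4 genes passed for Dup/+ against wt in any tissue in limma, against 0.0516%, 0.00516%, 0% and 0% of kept probe sets in hippocampus, striatum, cerebellum and liver. Before adjustment, a p under 0.05 was found for 4, 4, 3 and 1 of the 4 genes in hippocampus, striatum, cerebellum and liver, where 2.67%, 6.66%, 2% and 1.5% of kept probe sets were higher in Dup/+ mice at that level. The largest hippocampus differences were 0.61 for Asphd1 (adjusted p = 0.0548) and 0.52 for Tmem219 (adjusted p = 0.0853), and the largest of the striatum was 0.59 for Tlcd3b (adjusted p = 0.190). In the striatum, Tmem219 and Tlcd3b passed without Dup/+ 19 (adjusted p = 0.0432 and 0.0461), and in the hippocampus Tmem219 passed without Del/+ 26 (adjusted p = 0.0487). Asphd1 in the hippocampus passed with a variance trend and robust moderation (adjusted p = 0.0396) and after renewed normalization within the tissue (0.0461).

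Read array by array, all Del/+ values lay below all wt values for 4, 2, 4 and 2 of the 4 genes in hippocampus, striatum, cerebellum and liver, where 0.449%, 0.294%, 1.33% and 1.04% of all kept probe sets did so. All Dup/+ values lay above all wt values for 2, 3, 3 and 1 of the 4 genes, against 0.309%, 0.609%, 1.04% and 0.801%.

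On a linear scale, loss of 1 of 2 copies would give 0.5 times the wt signal and gain of 1 copy 1.5 times, if signal followed copy number in proportion. Asphd1 in the hippocampus stood at 0.534 times wt in Del/+ mice (95% confidence interval 0.457 to 0.625) and 1.53 times wt in Dup/+ mice (1.31 to 1.79). It was the one case of 12 gene and brain region pairs in which the Del/+ interval held 0.5. The other Del/+ ratios in the brain ran from 0.592 (Tlcd3b in the cerebellum) to 0.860 (Gdpd3 in the striatum). The Dup/+ interval held 1.5 in 7 of 12 pairs, and the ratios ran from 1.16 for Gdpd3 in the cerebellum to 1.53 for Asphd1.

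In the liver Tmem219 stood at 0.535 times wt (0.430 to 0.665) and 1.34 times wt (1.08 to 1.67), and both intervals held the proportional value. The ratios were also taken after subtraction of the median receptor signal, since array signal includes light from unspecific binding. The Gdpd3 ratios in Del/+ mice then went from 0.757 to 0.694 (hippocampus), from 0.860 to 0.823 (striatum), from 0.711 to 0.657 (cerebellum) and from 0.760 to 0.592 (liver). Those of Tlcd3b went from 0.592 to 0.582 in the cerebellum and from 0.983 to 0.973 in the liver.

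**Figure D4:**
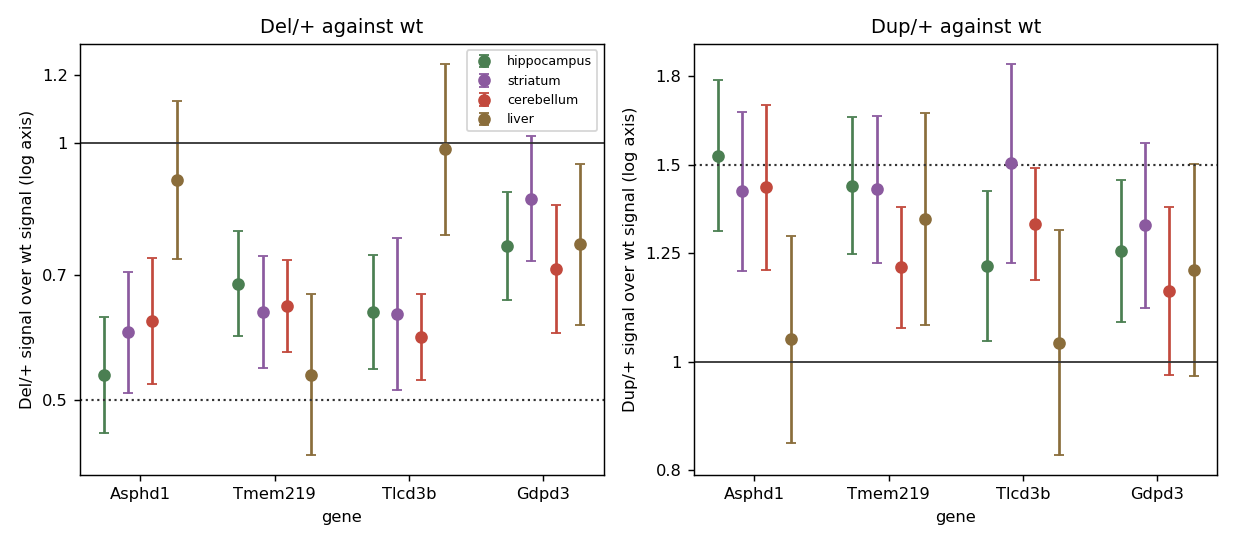
Del/+ signal over wt signal (left) and Dup/+ signal over wt signal (right) are plotted on a log axis for each gene and tissue, with 95% confidence intervals from limma, a solid line at 1 and a dotted line at 0.5 or 1.5. Asphd1 in the hippocampus (0.534) and Tmem219 in the liver (0.535) are the 2 Del/+ points whose intervals reach 0.5.

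The change on loss was larger in size on the log2 scale than that on gain in 11 of 12 pairs of gene and brain region, the exception being Gdpd3 in the striatum (-0.22 and 0.40). The pairs share arrays, and the pattern was not particular to the 4 genes. Taok2, Maz, Cdipt and Ypel3 of the interval also changed more on loss in each brain region, while some other interval genes did not. The share of all kept probe sets was not counted. A departure from a straight line was measured as the Del/+ and Dup/+ means less 2 times the wt mean, which would be -0.42 for a signal in proportion to copy number. It passed for none of the 4 genes in any tissue in limma (0.00516% of kept probe sets passed in the striatum, 0% elsewhere), with an unadjusted p under 0.05 for Tlcd3b in the hippocampus (-0.38) and for Tmem219 and Tlcd3b in the cerebellum (-0.36 and -0.35). At that level stood 5.01%, 6.51%, 3.63% and 3.05% of kept probe sets in hippocampus, striatum, cerebellum and liver. Without Dup/+ 47 the Tlcd3b value in the hippocampus was -0.24.

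The slopes were not found to differ between brain regions. Of 12 differences, 0 passed in limma and 0 had an unadjusted p under 0.05, while 0%, 0% and 0.0206% of all kept probe sets passed (7.67%, 4.25% and 8.07% unadjusted) for striatum against hippocampus, cerebellum against hippocampus and cerebellum against striatum. The differences ran from -0.15 (Asphd1, cerebellum against hippocampus, 95% confidence interval -0.34 to 0.038) to 0.16 (Tlcd3b, striatum against hippocampus, -0.035 to 0.35). The second of these was 0.081 without the hippocampus array of Dup/+ 47 and 0.042 without all 3 Dup/+ arrays that carried marker signal of a neighbouring tissue. The labels give array numbers but no plate or batch. Within each of 3 runs of 24 consecutive array numbers, a split that was assumed, the slopes of the 4 genes were above 0 in every brain region, from 0.22 (Gdpd3 in the cerebellum) to 0.82 (Asphd1 in the hippocampus). In the liver, Tmem219 gave 0.62 to 0.70 and Gdpd3 0.26 to 0.39 within these runs, and Tlcd3b gave -0.16 to 0.21.

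The wt level of Tlcd3b differed between all 3 brain regions. It was 6.55 ± 0.23 (SD, n = 8) in the striatum, 7.17 ± 0.14 (n = 8) in the hippocampus and 7.79 ± 0.076 (n = 6) in the cerebellum, and no wt array of one region overlapped those of another. The cerebellum exceeded the striatum by 1.24 on the log2 scale (standard error 0.092, adjusted p = 4.63e-11), a 2.37-fold difference. Both neighbouring steps were 0.62 in size (adjusted p = 3.02e-06 for striatum below hippocampus and 3.49e-06 for cerebellum above hippocampus).

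Gdpd3 was highest in the cerebellum, at 5.12 ± 0.086 (SD, n = 6), above the hippocampus at 4.63 ± 0.21 (n = 8) by 0.49 (adjusted p = 3.42e-04) and above the striatum at 4.58 ± 0.23 (n = 8) by 0.54 (adjusted p = 9.50e-05), with no overlap. Hippocampus and striatum did not differ beyond their spread (-0.058, adjusted p = 0.717). Asphd1 was at 6.48 ± 0.16, 6.68 ± 0.13 and 6.54 ± 0.16 in hippocampus, striatum and cerebellum, and Tmem219 at 6.45 ± 0.10, 6.48 ± 0.12 and 6.50 ± 0.078, with overlapping arrays and no difference past the threshold. The nearest was Asphd1 in striatum against hippocampus (0.19, adjusted p = 0.0704), which passed without the striatum array of wt 16, the one with liver marker signal (0.22, adjusted p = 0.0439). The 5 of 12 differences that passed stand beside 31.6%, 60.2% and 60.5% of all kept probe sets for striatum against hippocampus, cerebellum against hippocampus and cerebellum against striatum. Differences in wt level between regions were therefore common on this array.

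**Figure D5:**
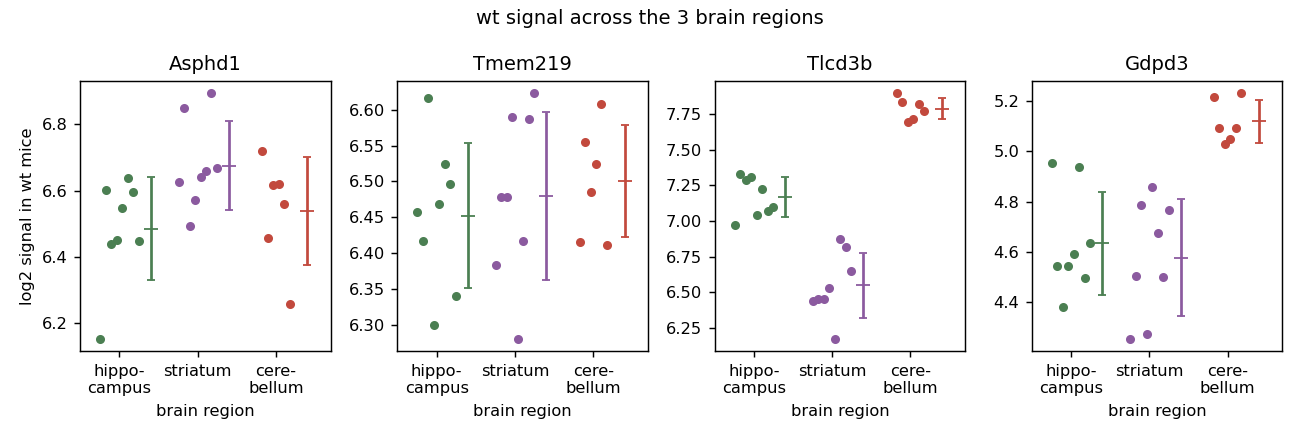
The log2 signal of each gene on the 22 wt brain arrays (vertical axis, own scale per panel) is plotted by brain region, with the mean and SD beside the points (n = 8, 8 and 6). Tlcd3b separates the 3 regions and Gdpd3 the cerebellum from the others, while the points of Asphd1 and Tmem219 overlap.

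Outside the interval, the genes whose wt signal was most like that of Tlcd3b over the 22 wt brain arrays were Abcc8, a subunit of ATP-sensitive potassium channels, Tmem25 and the potassium channel gene Kcnk12 (Pearson correlation 0.98 each, of 10224 candidates). For Gdpd3 they were Rsrc2, Slc13a1 and Ddx52 (0.88, 0.87 and 0.87). For Asphd1 and Tmem219, whose level differed little between regions, the highest values were 0.68 with Usb1 and 0.67 with H2af-ps2. These correlations are across arrays that fall into 3 regions, and a gene with the same order of regions scores high by that alone.

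Over all 44 brain arrays, with the wt mean of each region taken off, the interval genes most like Asphd1 were Ypel3, Taok2 and Maz (0.94, 0.93 and 0.93), those most like Tmem219 were Sez6l2, Maz and Taok2 (0.94, 0.93 and 0.93), and those most like Tlcd3b were Cdipt, Sez6l2 and Ypel3 (0.93, 0.92 and 0.92). For Gdpd3 the values were lower, with 0.82 for its neighbour Ypel3. The 6 pairs among the 4 genes themselves ran from 0.75 (Tlcd3b and Gdpd3) to 0.89 (Asphd1 and Tmem219). All these genes share the same change in copy number, and among wt arrays alone, centred by region, the 6 pairs ran from -0.24 to 0.32.

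Among relatives and partners of the 4 genes elsewhere in the genome, no slope passed the test. In 6 lists, 0 of 50 kept probe sets rose or fell in any brain region and 0 of 54 in the liver, with limma. An unadjusted p under 0.05 was found for 2 of 50, 5 of 50, 2 of 50 and 3 of 54 of them in these 4 tissues, beside 6.31%, 9.04%, 6.25% and 7.19% of all kept probe sets.

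Among the genes of ceramide synthases and other TLC domain proteins, the median slopes in hippocampus, striatum, cerebellum and liver were -0.0052, 0.074, 0.019 and 0.056, beside 0.0051, 0.0033, 0.0011 and -0.019 over all kept probe sets. The smallest p of this list was that of Tram1, a translocation-associated membrane protein, in the striatum (slope 0.16, adjusted p = 0.548). For other genes of sphingolipid synthesis and turnover the medians were 0.0089, 0.060, -0.030 and -0.016. Galc, the lysosomal galactosylceramidase, had liver means of 6.00, 6.33 and 6.65 in Del/+, wt and Dup/+ mice, or 0.33 per copy (standard error 0.082, adjusted p = 0.309). Cerk, the ceramide kinase, had a liver slope of -0.22 (adjusted p = 0.592), and Degs2, a sphingolipid desaturase, one of -0.19 (adjusted p = 0.614). In the striatum the slope of Smpd1, the acid sphingomyelinase, was -0.19 (adjusted p = 0.448), and in the hippocampus that of the neutral ceramidase Asah2 was 0.11 (adjusted p = 0.768).

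For glycerophosphodiester phosphodiesterases the medians were 0.040, 0.089, 0.037 and -0.039 in hippocampus, striatum, cerebellum and liver, over 2 or 3 kept probe sets. The striatum slope of Gdpd2 was 0.35 (adjusted p = 0.478) and its cerebellum slope 0.15 (adjusted p = 0.673). In the striatum its Dup/+ mean was 6.81 beside 6.20 in wt and 6.12 in Del/+ mice, and Gdpd5 had a slope of -0.17 (adjusted p = 0.542).

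The N-acylethanolamine and lysophosphatidic acid genes had medians of -0.012, 0.033, -0.0042 and -0.0046, with Napepld, the phospholipase D that makes N-acylethanolamines, at -0.13 in the hippocampus (adjusted p = 0.740). The aspartate beta-hydroxylase genes Asph and Asphd2 had medians of -0.013, 0.039, 0.0094 and -0.31, the last from 1 kept probe set of Asph (adjusted p = 0.761). The Igfbp3, chitinase-like and caspase-8 partners of Tmem219 had medians of 0.0012, 0.069, -0.10 and 0.097. Among them Fadd, the caspase-8 adaptor, had a slope of -0.16 in the cerebellum (adjusted p = 0.746) and Chil1 one of 0.14 in the striatum (adjusted p = 0.499). None of these values passed the test.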

How the data were processed

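Log2 signals per probe set (41155 on 56 arrays) were used as deposited. Per the labels and the study's methods, the authors used Affymetrix Expression Console, with quantile normalization of 44 brain and 12 liver arrays apart from each other. The log2 scale was read from the range of 0.57 to 13.6. Background correction and summary into probe sets are not given in the sources used here, and the labels name a 3′ labelling kit for this whole-transcript array. Gene names came from the platform annotation (23521 probe sets with 1 gene, 1820 with several, 15814 with none) and coordinates and promoters from RefSeq (GRCm38.p6).

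As in the study's methods, a probe set was kept if its maximum was at least the median of all probe sets (4.85 in brain, 3.61 in liver) and its variance was over the 25th percentile, over arrays normalized together. Slopes, genotype contrasts and region contrasts were fitted with limma (version 3.58.1) in R (version 4.3.3), with two-sided p-values and Benjamini-Hochberg adjustment over the kept probe sets at 5%. Exact permutation tests over all assignments of arrays to genotypes used numpy (version 2.4.6) under Python (version 3.11.15), and matplotlib (version 3.10.9) drew the plots. The slope fit was tested on simulated data. The 4 genes, the lists and the tests were chosen with earlier results of these data known. Named genes were the 4 genes, their closest correlates, and those of smallest p in each list, and some genes are not reported here. Where nothing says that samples came from separate litters, p-values measure the spread between these mice only.

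Alternatives were no filter, a filter within the tissue, the log2 copy ratio, runs of 24 array numbers as a block (an assumed split, as the labels give no plate), robust moderation with a variance trend, renewed quantile normalization within the tissue, subtraction of the receptor background, fits of 2 genotypes, the mouse number as a replicate block, a 99th percentile background and leaving out each array. Leaving out the Dup/+ arrays with other markers was added after the data were seen.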

Additional observations from a re-analysis of the deposited data

Results flagged for a closer look

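Of 32 groups of 4 to 8 arrays in which the lowest and the highest array were set against the spread of the others, 1 stood out. Asphd1 in the hippocampus of wt 6 was at 6.15, while the other 7 wt arrays lay between 6.44 and 6.64, and the gap was 0.59 of the whole range. Chance flags about 1 group in 20. Without this array the Asphd1 slope in the hippocampus stayed within the range of 0.71 to 0.80 found on leaving out each array in turn, past the threshold each time.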

How the results depend on the processing

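The 11 slopes past the threshold in the brain and liver kept their direction and call with no filter, with the filter within the tissue, the log2 copy ratio, runs of 24 array numbers as a block, the variance trend, renewed normalization and background subtraction. With that block, 1 of 4 genes passed for Del/+ against wt in the hippocampus in place of 3, Tmem219 having an adjusted p of 0.10 and Tlcd3b 0.0622, and the cause was not tested. For Dup/+ against wt in the hippocampus, 1 gene passed in place of 0 under the variance trend (Asphd1, adjusted p = 0.0396) and under renewed normalization (0.0461). Asphd1 in the Del/+ cerebellum passed with that block, the variance trend and renewed normalization (adjusted p of 0.0310, 0.0393 and 0.0395), and Tmem219 in the Del/+ hippocampus did not in a fit of 2 genotypes (0.0992). The Gdpd3 slopes of 0.31, 0.35 and 0.33 in striatum, cerebellum and liver missed the threshold in limma. Their exact permutation p-values of 0.000286, 0.000433 and 0.000541 are unadjusted single-gene values. In the liver Gdpd3 passed the filter through the array of Dup/+ 21 alone, so the value there describes the signal only. On leaving out each array in turn, the count of rising genes stayed at 4, 3 and 3 in hippocampus, striatum and cerebellum and ran from 0 to 1 in the liver, where the Tmem219 slope ran from 0.63 to 0.72. The count for Del/+ ran from 1 to 3, 1 to 2 and 1 to 3 in the brain regions, that for Dup/+ from 0 to 1 in the hippocampus and 0 to 2 in the striatum, and that of wt differences between regions from 5 to 6. Values near 0 changed sign in these fits. In the liver these were the Tlcd3b slope (-0.020 to 0.094), its Del/+ difference (-0.10 to 0.018) and Dup/+ difference (-0.076 to 0.18), and the Asphd1 Del/+ (-0.23 to 0.0068) and Dup/+ (-0.014 to 0.11) differences. Between regions they were the slope differences of Gdpd3 for cerebellum against hippocampus (-0.075 to 0.045), of Asphd1 (-0.079 to 0.024), Tlcd3b (-0.087 to 0.0019) and Gdpd3 (-0.022 to 0.099) for cerebellum against striatum, and the wt difference of Tmem219 for cerebellum against striatum (-0.0080 to 0.041). Mice share numbers across regions. Deviations of 22 same-number pairs of arrays correlated between -0.12 and 0.089, 0 of them over 0.1. Those of 618 pairs with different numbers ran from -0.21 to 0.26, 27 of them over 0.1. Such values cannot show whether a number stands for 1 mouse, since 2 regions of a mouse need not deviate alike. The main fits did not pair the arrays by number. With the mouse number as a replicate block, the counts for slope and wt differences between regions stayed at 0 and 5. With 3 or 4 mice per mutant group, single contrasts had wide intervals, and signals near background, as those of Gdpd3 everywhere and of Asphd1 and Tlcd3b in the liver, limit what could be detected.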
